A study of Mus musculus with 8 samples.

Results

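Atp1b2, Entpd1, Gda, Rec8, Mtfr2 and Ccdc40 are 6 genes whose transcript counts stood apart between the 2 Huwe1 knockout lines of this mouse study. They were picked by name for a difference between the Vav-Cre and the Mx1-Cre libraries, so that difference is described here with no test. The deposited count table holds 23358 genes, of which 14086 had enough reads to be tested, and all 6 were among those tested. The libraries came from hematopoietic stem cells (HSC), the self-renewing cells of the bone marrow that give rise to all blood cells, isolated by flow sorting with the surface phenotype Lin-Sca+Kit+CD48-CD150+ and taken without any culture step. There were 2 libraries labelled Huwe1 KO (Vav-Cre), 3 labelled Huwe1 KO (Mx1-Cre) and 3 labelled wild type. The Huwe1 protein is a ubiquitin ligase of the HECT type. Vav-Cre is a recombinase transgene active throughout the blood lineage from development on, and also known to act in some endothelium, and it deletes constitutively. Mx1-Cre is driven by an interferon-responsive promoter and deletes after induction. The labels state no treatment and name no inducing agent, no age, and no Cre transgene in the wild-type mice, so effects of a Cre line or of its induction cannot be told apart from loss of Huwe1. They also do not say that libraries of a group came from separate mice, so the p-values speak only of the spread among these libraries.

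The 6 genes belong to different pathways. Atp1b2 encodes the beta2 subunit of the Na,K-ATPase, the pump that exchanges sodium for potassium across the plasma membrane. Its beta subunits escort the catalytic alpha subunit to the cell surface, and beta2 is best known from glial cells. Entpd1 encodes CD39, a surface enzyme that removes phosphates from extracellular ATP and ADP and so feeds the production of adenosine. Gda encodes guanine deaminase, a cytosolic enzyme of purine breakdown that turns guanine into xanthine. Rec8 encodes the kleisin subunit of meiotic cohesin, the ring complex that holds sister chromatids together in germ cells. Mtfr2 encodes a mitochondrial fission regulator, and its transcript is also known from cycling cells. Ccdc40 encodes a coiled-coil protein that, with its partner Ccdc39, sets the spacing of dynein arms and other structures along motile cilia, which blood cells lack.

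The 250 bases before the start site are shown for 4 of the genes. They let genes lower in Vav-Cre than in Mx1-Cre (Mtfr2, Ccdc40) be read beside genes higher in Vav-Cre than in Mx1-Cre (Rec8, Entpd1). Against wild type, Rec8 was higher in Vav-Cre, whereas Entpd1 overlapped wild type there. The sequences are RefSeq's, build GRCm38.p6, read 5′ to 3′ on the gene's strand, and 5 of the 6 genes matched an entry. Capitals mark the CCAAT box (CCAAT or ATTGG) and the GC box (GGGCGG or CCGCCC). The windows are chr10:20347569-20347818 for Mtfr2, chr14:55617916-55618165 for Rec8, chr19:40612116-40612365 for Entpd1 and chr11:119228322-119228571 for Ccdc40, all on the plus strand.
Mtfr2: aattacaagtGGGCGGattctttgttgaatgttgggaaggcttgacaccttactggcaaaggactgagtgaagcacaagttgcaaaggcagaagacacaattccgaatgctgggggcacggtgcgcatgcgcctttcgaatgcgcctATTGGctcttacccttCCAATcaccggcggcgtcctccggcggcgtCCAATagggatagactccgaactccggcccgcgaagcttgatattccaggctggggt
Rec8: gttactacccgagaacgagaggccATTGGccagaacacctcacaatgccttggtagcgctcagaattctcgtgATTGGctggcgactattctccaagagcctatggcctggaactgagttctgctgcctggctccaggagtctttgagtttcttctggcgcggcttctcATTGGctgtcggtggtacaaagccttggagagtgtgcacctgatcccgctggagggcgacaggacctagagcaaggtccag
Entpd1: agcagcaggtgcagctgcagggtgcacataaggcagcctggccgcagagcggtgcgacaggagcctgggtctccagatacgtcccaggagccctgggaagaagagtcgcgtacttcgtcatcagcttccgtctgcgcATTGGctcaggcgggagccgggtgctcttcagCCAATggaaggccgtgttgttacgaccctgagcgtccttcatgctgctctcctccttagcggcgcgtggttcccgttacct
Ccdc40: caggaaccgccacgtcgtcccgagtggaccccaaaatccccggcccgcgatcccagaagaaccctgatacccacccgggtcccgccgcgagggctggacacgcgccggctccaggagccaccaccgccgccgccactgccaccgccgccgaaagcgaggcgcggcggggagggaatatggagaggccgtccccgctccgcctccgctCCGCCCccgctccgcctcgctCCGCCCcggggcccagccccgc

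The CCAAT box, a short element bound by the factor NF-Y and frequent in promoters of cell cycle genes, occurred 3 times in the Mtfr2 window, at 103, 87 and 57 bases before the start. It also occurred 3 times in the Rec8 window (226, 177 and 81 bases before) and 2 times in the Entpd1 window (113 and 81 bases before). Both strands were searched, and 33.8% of the 32851 RefSeq windows of this length held at least 1. The Ccdc40 window held none, and carried 2 GC boxes, at 43 and 22 bases before the start. A GC box was found in 32.7% of all windows. Mtfr2 had 1, at 240 bases before the start. The Ccdc40 window was also the richest of those shown in G and C, at 76.4%, against a median of 52.4% over all windows and a 90th percentile of 69.2%. The Gda window held 1 CCAAT box, at 17 bases before the start, and a further annotated Entpd1 start had 1 CCAAT box and 1 cell cycle homology region (TTTGAA or TTCAAA, in 16.0% of windows). An E-box (CACGTG, in 6.02% of windows) and the X-box core GGCAAC or GTTGCC (10.4%) were not found in any window of the 5 genes. Mtfr2, low in Vav-Cre, and Rec8, high there, thus held the same number of CCAAT boxes.

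Sequencing depth was similar in all libraries, with 28689765 to 33202926 counted reads each. Levels below are CPM, read counts scaled to library size after TMM correction. They are not divided by gene length and are not compared between genes. Huwe1 itself had 445 and 490 CPM in Vav-Cre libraries, 444, 399 and 412 CPM in Mx1-Cre libraries, and 434, 398 and 433 CPM in wild type. The gene-level count was therefore not lower in either knockout-labelled group. A count over the whole gene does not test the deletion of single exons, so it neither checks the labels nor contradicts them. All 20 stem cell markers examined were detected in every library, but their levels differed between the lines: 18 of 20 had a positive log2 difference of Vav-Cre from Mx1-Cre, with a median of 0.63 beside 0.01 over all genes, and in edgeR 2 were called, both higher in Vav-Cre. Kit was their most abundant gene. Without it they summed to 5005 and 5049 CPM in Vav-Cre, 3494 to 4560 CPM in Mx1-Cre and 5107 to 5450 CPM in wild type. Every Mx1-Cre library was then below all others, as for Entpd1 and Gda among the 6 genes. Rec8 too had its lowest mean in Mx1-Cre, though its libraries overlapped wild type. With Kit the sums were 6776 and 6677 CPM in Vav-Cre, 4476 to 6904 CPM in Mx1-Cre and 6353 to 7296 CPM in wild type. The groups then overlapped. The part of these markers in the results below was not tested. The biological coefficient of variation was 36.1% in Vav-Cre, 30.5% in Mx1-Cre and 21.1% in wild-type libraries, so the Vav-Cre values, which rest on 2 libraries, are the least precise.

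In every one of the 6 genes the Vav-Cre and Mx1-Cre libraries did not overlap, which is what they were picked for. Over all tested genes such a gap was seen in 25.8%. At an adjusted p below 0.05 in edgeR's quasi-likelihood test, 24 genes (0.170%) differed between the lines, 16 higher (0.114%) and 8 lower (0.0568%) in Vav-Cre. That test is used here only for genes other than the 6. Unadjusted p-values below 0.05 were counted in 1869 genes. By the size of the log2 fold change alone, the 6 ranked between 186 (Atp1b2) and 890 (Ccdc40) of 14086. Entpd1, Gda and Rec8 were higher in Vav-Cre, and Atp1b2, Mtfr2 and Ccdc40 were higher in Mx1-Cre.

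**Figure D1:**
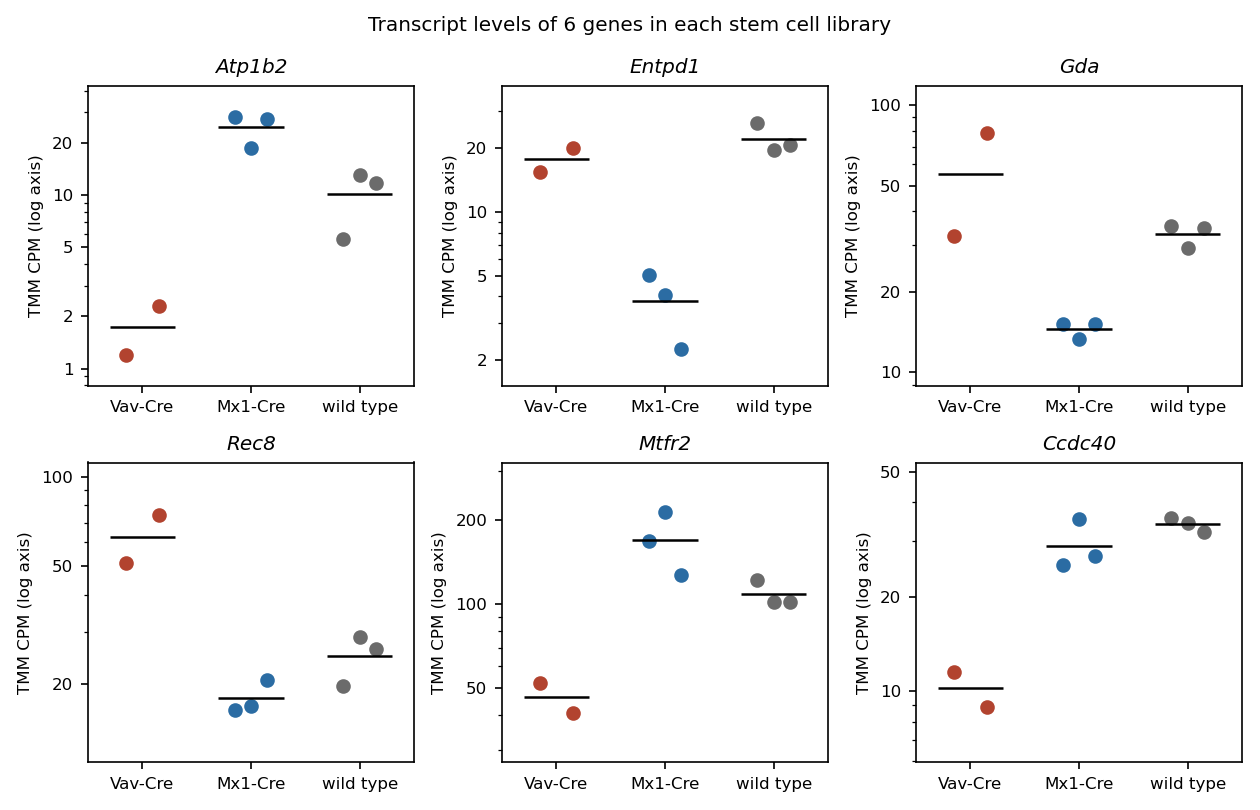
TMM-scaled CPM on log axes for each of the 6 genes; each point is 1 library and each bar the group mean, for Vav-Cre (2 libraries), Mx1-Cre (3) and wild type (3). Atp1b2 and Mtfr2 have wild type between the lines, Entpd1 and Gda are low in Mx1-Cre, Rec8 is high in Vav-Cre, and Ccdc40 is low in Vav-Cre.

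Set against wild type, the 6 genes fell into 3 patterns. In Atp1b2 and Mtfr2, every Vav-Cre library was below all wild-type libraries and every Mx1-Cre library above them, an arrangement, in either direction, shown by 1.04% of tested genes. Entpd1 and Gda stood apart from wild type in Mx1-Cre, where both were lower, while their Vav-Cre libraries overlapped wild type. Rec8 and Ccdc40 stood apart in Vav-Cre, Rec8 higher and Ccdc40 lower, while their Mx1-Cre libraries overlapped wild type. Libraries that do not overlap with wild type were found in 32.8% of tested genes for Vav-Cre and in 25.6% for Mx1-Cre, against 4 of 6 here for each line. Both comparisons use the libraries that picked the genes and share the wild-type libraries, so nothing is read from these counts.

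**Figure D2:**
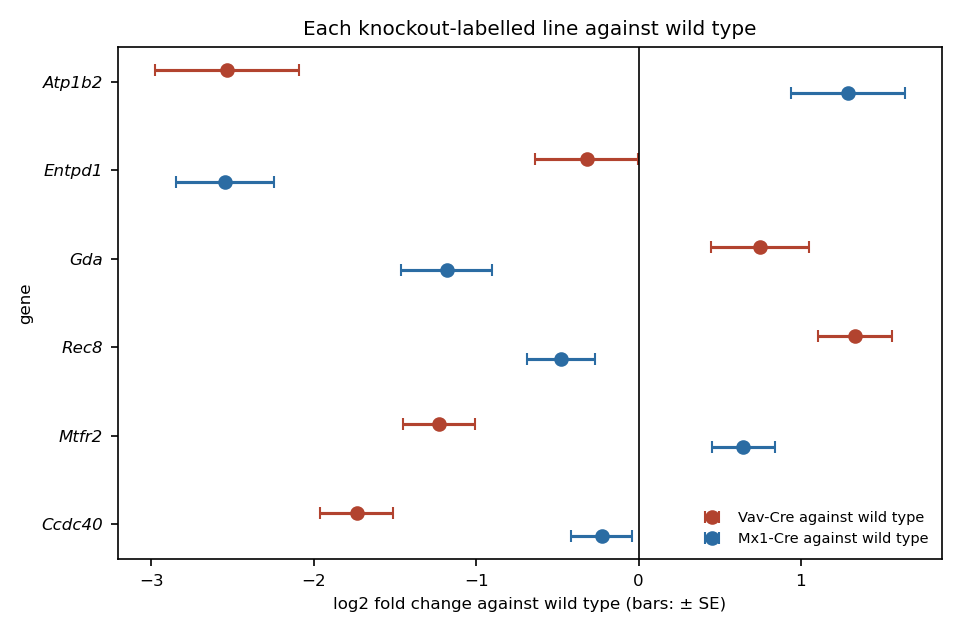
Log2 fold change of each line against wild type with its SE, from 1 edgeR fit over 8 libraries; Vav-Cre is drawn above Mx1-Cre for each gene. Atp1b2, Gda, Rec8 and Mtfr2 have folds of opposite sign in the lines, whereas both folds of Entpd1 and of Ccdc40 are below 0.

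Atp1b2 had the widest gap. It measured 1.19 and 2.29 CPM in Vav-Cre libraries, 28.4, 18.8 and 27.3 CPM in Mx1-Cre libraries, and 5.58, 13.1 and 11.8 CPM in wild type. The 2 Vav-Cre values rest on 34 and 74 reads. Group means were 1.74 ± 0.779 CPM in Vav-Cre (SD, n = 2), 24.8 ± 5.25 CPM in Mx1-Cre (n = 3) and 10.2 ± 4.02 CPM in wild type (n = 3). The lowest Mx1-Cre library was 8.19-fold above the highest Vav-Cre library. On the log2 scale the fitted difference of Vav-Cre from Mx1-Cre was -3.82 ± 0.47 (SE), from -4.38 to -3.44 when single libraries were left out. Vav-Cre differed from wild type by -2.54 ± 0.44 and Mx1-Cre by 1.29 ± 0.35. The lowest wild-type library was 2.43-fold above the highest Vav-Cre library, and the lowest Mx1-Cre library 1.43-fold above the highest in wild type. Within wild type the highest library was 2.35-fold above the lowest, a wider spread than the gap between Mx1-Cre and wild type.

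No other subunit of the pump passed the test. Of 8 other Na,K-ATPase genes tested, 0 were called between the lines at an adjusted p below 0.05 in edgeR. Of all tested genes edgeR called 0.170%, so 0 of 8 is not read as a result. An unadjusted p below 0.05 was found for 0 of the 8, and 0 were called by DESeq2 or limma voom. Their median log2 difference of Vav-Cre from Mx1-Cre was -0.11, beside 0.01 over all tested genes. Atp1b3, another beta subunit, averaged 74.4 ± 1.63 CPM in Vav-Cre, 81.1 ± 24.4 CPM in Mx1-Cre and 84.2 ± 18.6 CPM in wild type. Atp1b1 was scarce in each group, at 1.17 ± 0.520 CPM in Vav-Cre, 1.31 ± 0.233 CPM in Mx1-Cre and 2.26 ± 0.669 CPM in wild type. These means are over 2, 3 and 3 libraries with the SD.

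Among the 3 genes whose profile over the 8 libraries was most like that of Atp1b2 were Kel and Rhd, with root mean square differences of 0.82 and 0.88 on the log2 scale after each profile was centred on its own mean. The Atp1b2 profile itself spread by 1.55 on this measure, and 10504 genes were candidates. Kel encodes the Kell blood group protease and Rhd the Rhesus D protein, both of the red cell membrane. Kel had 2.45 and 2.60 CPM in Vav-Cre libraries, 10.9, 7.22 and 10.7 CPM in Mx1-Cre libraries, and 2.64, 6.73 and 5.20 CPM in wild type. Rhd had 1.05 and 2.05 CPM in Vav-Cre libraries, 8.37, 6.89 and 12.8 CPM in Mx1-Cre libraries, and 9.38, 15.8 and 17.9 CPM in wild type. For both, all Mx1-Cre libraries were above both Vav-Cre libraries. Wild type 1, the control library lowest in Atp1b2, was also the lowest control in Kel and Rhd. Both genes were picked for likeness to Atp1b2 over these same libraries. Such agreement is favoured by the choice and is no further support.

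**Figure D3:**
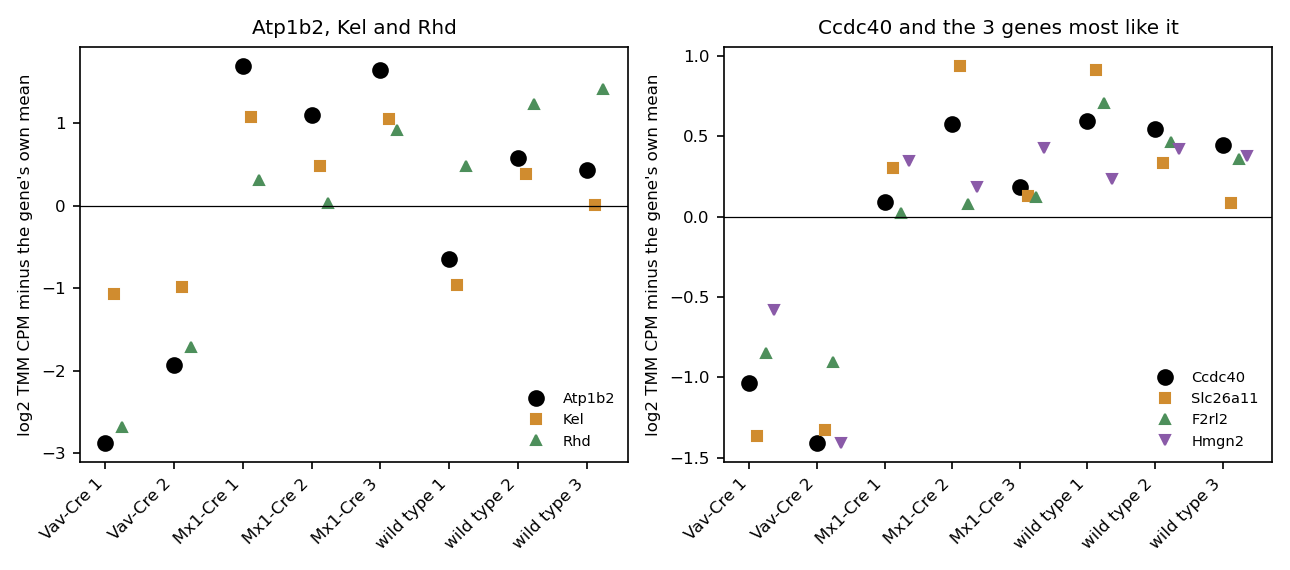
Log2 CPM of Atp1b2 with Kel and Rhd (left) and of Ccdc40 with the 3 genes most like it (right), per library, each gene centred on its own mean over the 8 libraries. Both sets are lowest in the Vav-Cre libraries, with Kel in wild type 1 near its Vav-Cre values.

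A list of 18 erythroid markers was lowest in Vav-Cre, as Atp1b2 was, once its most abundant gene, Car2, was left out. That step was chosen after the values were seen. The summed level of the markers was then 103 and 169 CPM in Vav-Cre libraries, 289 to 416 CPM in Mx1-Cre libraries and 208 to 313 CPM in wild type. Mx1-Cre and wild type overlapped here, unlike in Atp1b2. Of the markers left, Car1 had 45 and 844 reads in Vav-Cre, 4551, 2368 and 5850 in Mx1-Cre, and 1733, 3711 and 4154 in wild type. With Car2 the sum was 4594 and 6379 CPM in Vav-Cre, 6231 to 7695 CPM in Mx1-Cre and 5031 to 5937 CPM in wild type, and the groups overlapped. Of the 14 erythroid markers tested, 2 fell in Vav-Cre relative to Mx1-Cre, beside 0.0568% of all genes, while limma voom called 0 and DESeq2 called 6. One of these was Add2, a subunit of the red cell membrane skeleton, with a log2 difference of -5.83 ± 0.57 (adjusted p = 0.00726 in edgeR's quasi-likelihood test). It was lower in 2 of 2 Vav-Cre libraries than in all 3 Mx1-Cre libraries. Add2 had 2 and 5 reads in Vav-Cre, 222, 217 and 152 in Mx1-Cre, and 105, 205 and 151 in wild type. The size of its difference thus rests on few Vav-Cre reads. Rhd missed the threshold, at -2.59 ± 0.44 with an adjusted p of 0.0590. The 4 haemoglobin genes of the list were at 0 in every library. The Lin- gate of the sort is meant to remove cells of the erythroid lineage. The part of erythroid transcripts in the Atp1b2 difference was not tested, and in bulk libraries fewer cells of a type and less RNA per cell cannot be told apart.

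**Figure D4:**
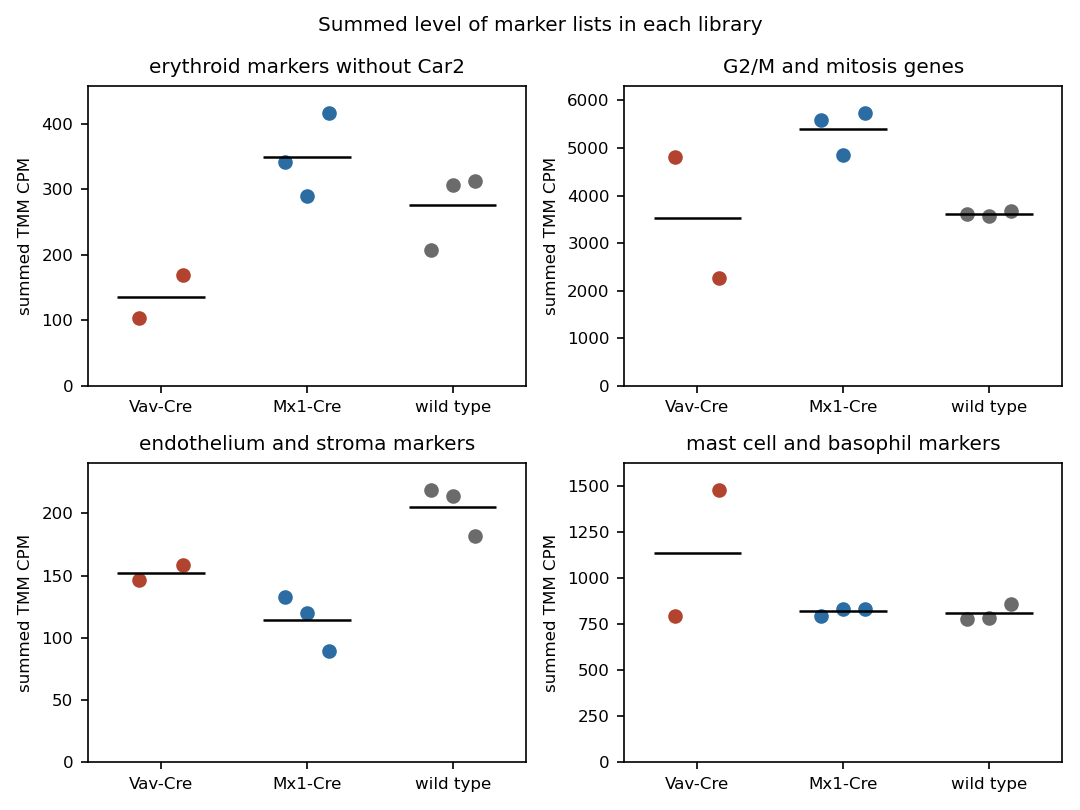
Summed CPM of 4 marker lists in each library, with axes from 0; points are libraries and bars are group means. Erythroid markers without Car2 are lowest in Vav-Cre, G2/M genes are spread from 2262 to 4811 CPM between the 2 Vav-Cre libraries, and mast cell and basophil markers are high in Vav-Cre 2 at 1481 CPM.

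Entpd1 was lower in every Mx1-Cre library. It had 15.5 and 20.1 CPM in Vav-Cre libraries, 5.03, 4.06 and 2.27 CPM in Mx1-Cre libraries, and 26.2, 19.6 and 20.8 CPM in wild type. The Vav-Cre range overlapped that of wild type, while the highest Mx1-Cre library was 3.89-fold below the lowest wild-type library. Means were 17.8 ± 3.25 CPM in Vav-Cre, 3.79 ± 1.40 CPM in Mx1-Cre and 22.2 ± 3.51 CPM in wild type (SD, n = 2, 3 and 3). The fitted log2 difference of Vav-Cre from Mx1-Cre was 2.23 ± 0.32, that of Vav-Cre from wild type -0.32 ± 0.32 and that of Mx1-Cre from wild type -2.55 ± 0.30. RefSeq places the pseudogenes Gm16027 and Gm8783 and the long noncoding RNA Gm41846 over Entpd1, and none of these symbols was matched in the count table. The protocol keeps no strand, so reads from either strand there cannot be told apart.

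Of the genes listed around extracellular nucleotides and adenosine, 3 besides Entpd1 fell in the knockout-labelled libraries. Of these 3, Entpd4 acts inside the cell and P2ry10 is grouped with the P2Y family by sequence, so they are not read as 1 pathway. Of 31 tested besides Entpd1, 0 were called between the lines in edgeR, beside 0.170% of all tested genes. In edgeR 3 had an unadjusted p below 0.05, while DESeq2 called 1, Enpp1, and limma voom 0. The median log2 difference was 0.17, beside 0.01 over all genes. In the comparison of the 5 knockout-labelled libraries, weighted equally per library, with wild type, 3 of the 31 were called, all lower, and 0 were higher. Across all tested genes that comparison called 445 (3.16%), of which 363 were lower (2.58%) and 82 higher (0.582%). Dpp4, the surface peptidase CD26 that binds adenosine deaminase in humans, had 45.9 and 29.3 CPM in Vav-Cre, 25.6, 43.5 and 24.2 CPM in Mx1-Cre, and 74.7, 77.2 and 77.9 CPM in wild type. Its log2 change was -1.19 ± 0.21 (edgeR, adjusted p = 0.0178), and all 5 knockout-labelled libraries were below all 3 of wild type. Entpd4, an intracellular relative of Entpd1, had 30.5 and 55.4 CPM in Vav-Cre, 34.9, 38.5 and 55.7 CPM in Mx1-Cre, and 81.7, 83.5 and 88.2 CPM in wild type, a change of -0.97 ± 0.21 (edgeR, adjusted p = 0.0340). All 5 knockout-labelled libraries were again below wild type, and between the lines the log2 difference of Entpd4 was 0.00 ± 0.26. P2ry10, a receptor grouped by sequence with the P2Y family, changed by -1.59 ± 0.34 (edgeR, adjusted p = 0.0355) and was also below wild type in all 5. Each of these 3 calls was lost when any 1 wild-type library was left out. That of Entpd4 was also lost without Mx1-Cre 1 or 2, and that of P2ry10 without Mx1-Cre 1 or 3. The highest adjusted p was 0.0970 for Dpp4, 0.151 for Entpd4 and 0.138 for P2ry10.

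Nt5e, the CD73 enzyme that makes adenosine from the AMP that CD39 leaves, averaged 3.03 ± 2.40 CPM in Vav-Cre, 2.57 ± 2.20 CPM in Mx1-Cre and 2.06 ± 0.842 CPM in wild type. Entpd5, a further family member, averaged 132 ± 29.9 CPM, 124 ± 14.2 CPM and 110 ± 21.9 CPM in Vav-Cre, Mx1-Cre and wild type. Neither passed the test in either comparison. The profiles most like Entpd1 were those of Pygm (muscle glycogen phosphorylase), Igsf10 and Csf2rb2 (the interleukin-3-specific beta receptor chain of mice), at 0.34, 0.42 and 0.46. Pygm had 17.6 and 25.3 CPM in Vav-Cre libraries, 8.74, 5.99 and 4.65 CPM in Mx1-Cre libraries, and 26.3, 28.8 and 40.6 CPM in wild type. Pygm lies on chromosome 19 as Entpd1 does, with 373 protein-coding genes between them. Entpd1 is also known from endothelium. The 16 endothelial and stromal markers summed to 146 and 158 CPM in Vav-Cre. Their sums were 89.3 to 133 CPM in Mx1-Cre and 182 to 219 CPM in wild type, in the order of the Entpd1 means. Taken singly, the markers were split between the lines. Of 13 tested, 6 had a positive and 7 a negative log2 difference of Vav-Cre from Mx1-Cre, and 0 were called in edgeR. Their median was -0.21, opposite in sign to Entpd1. Bgn, which encodes the matrix proteoglycan biglycan, led the list in wild type, and Pecam1, which stem cells also express, led it in every knockout-labelled library. Bgn had 1101 and 783 reads in Vav-Cre, 659, 491 and 456 in Mx1-Cre, and 2232, 2243 and 2097 in wild type, and fell by 1.65 ± 0.17 on the log2 scale in the 5 knockout-labelled libraries (edgeR, adjusted p = 0.00187). Without Pecam1 the sums were 91.2 and 100.3 CPM in Vav-Cre, 63.6 to 99.4 CPM in Mx1-Cre and 139 to 159 CPM in wild type. Their part in the result was not tested.

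Gda shared the Mx1-Cre pattern and showed the widest disagreement between the Vav-Cre libraries. It had 32.3 and 78.6 CPM in Vav-Cre libraries, 15.2, 13.3 and 15.2 CPM in Mx1-Cre libraries, and 35.4, 29.2 and 34.6 CPM in wild type. The 3 Mx1-Cre values were tightly grouped and below all others, Vav-Cre 1 lay within the wild-type range, and Vav-Cre 2 stood above every other library. Means were 55.5 ± 32.8 CPM in Vav-Cre, 14.6 ± 1.06 CPM in Mx1-Cre and 33.1 ± 3.35 CPM in wild type (SD, n = 2, 3 and 3). The log2 difference was 1.93 ± 0.30 for Vav-Cre against Mx1-Cre, 0.75 ± 0.30 for Vav-Cre against wild type and -1.18 ± 0.28 for Mx1-Cre against wild type. Without Vav-Cre 2 these first 2 differences were 1.15 and -0.03, so the higher level in Vav-Cre than in wild type rested on that library. Vav-Cre 2 also stood apart in the 15 mast cell and basophil markers, summing to 797 and 1481 CPM in Vav-Cre 1 and 2, 797 to 835 CPM in Mx1-Cre and 781 to 861 CPM in wild type. Fcer1a, the IgE receptor alpha chain of those cells, had 57 and 6729 reads in Vav-Cre, 227, 411 and 211 in Mx1-Cre, and 7, 6 and 0 in wild type, while Mcpt4 and Tpsab1 were at 0 in every library. The list was not uniformly high in Vav-Cre 2. Its most abundant gene over all libraries was Gata2, a factor that stem cells also express and that is on the stem cell list too, with 13062 and 22913 reads in Vav-Cre, 16217, 9944 and 16442 in Mx1-Cre, and 9601, 11526 and 13027 in wild type. Without Gata2 the sums were 339 and 771 CPM in Vav-Cre, 252 to 474 CPM in Mx1-Cre and 408 to 464 CPM in wild type. Hdc, the histamine-forming enzyme of mast cells and basophils, was low in Vav-Cre 2, with 37 and 18 reads in Vav-Cre, 167, 31 and 71 in Mx1-Cre, and 153, 223 and 181 in wild type. The part of these markers in the Gda value was not tested.

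No other purine enzyme was called by edgeR. Of 28 tested, 0 were called in either comparison, with 4 at an unadjusted p below 0.05 between the lines. Between the knockout-labelled libraries and wild type, 3 had such a p. Over all tested genes edgeR called 0.170% and 3.16% in these comparisons, so 0 of 28 is not read as a result. DESeq2 called 0 and 1 in these comparisons and limma voom 0 and 2, with Gmpr lower than in wild type by both. Their medians were -0.16 between the lines and 0.02 against wild type on the log2 scale, beside 0.01 and 0.00 over all tested genes. Pnp, which releases guanine from guanosine and so makes the substrate of Gda, averaged 167 ± 24.1 CPM in Vav-Cre, 164 ± 16.8 CPM in Mx1-Cre and 170 ± 15.2 CPM in wild type. Hprt, which returns guanine to the nucleotide pool, averaged 418 ± 82.6 CPM, 437 ± 39.9 CPM and 393 ± 41.5 CPM in Vav-Cre, Mx1-Cre and wild type. Hprt differed by -0.06 ± 0.16 between the lines and by 0.13 ± 0.13 against wild type on the log2 scale, and Pnp by 0.02 ± 0.15 and -0.04 ± 0.12. Xdh, which oxidises the xanthine that Gda produces, was scarce, with 12 and 132 reads in Vav-Cre libraries, 97, 193 and 46 reads in Mx1-Cre libraries, and 108, 152 and 226 reads in wild type, and the 3 groups overlapped. The profiles most like Gda were those of Rab40b, Rab11fip3 and Hoxb3, at 0.23, 0.29 and 0.29. The first 2 encode a Rab-family GTPase and a Rab11 effector, and Hoxb3 is a homeobox factor expressed in stem cells. Hoxb3, picked for its likeness to Gda over these same libraries, also differed between the Vav-Cre libraries. It had 7.53 and 28.2 CPM in Vav-Cre, 6.95, 4.53 and 6.14 CPM in Mx1-Cre, and 9.47, 10.7 and 10.9 CPM in wild type.

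Rec8 was highest in Vav-Cre. It had 51.0 and 74.4 CPM in Vav-Cre libraries, 16.3, 16.8 and 20.5 CPM in Mx1-Cre libraries, and 19.7, 28.9 and 26.1 CPM in wild type. Both Vav-Cre libraries were above all others, and Mx1-Cre 3 exceeded wild type 1, so those groups overlapped. Means were 62.7 ± 16.5 CPM in Vav-Cre, 17.9 ± 2.32 CPM in Mx1-Cre and 24.9 ± 4.69 CPM in wild type (SD, n = 2, 3 and 3). The fitted log2 difference of Vav-Cre was 1.81 ± 0.23 from Mx1-Cre and 1.33 ± 0.23 from wild type, and that of Mx1-Cre from wild type was -0.48 ± 0.21. Leaving out single libraries moved the Vav-Cre difference from Mx1-Cre between 1.51 and 2.06. The genes on either side did not share it: Irf9, an interferon-response factor, and Ipo4, an importin, had log2 differences of 0.19 ± 0.12 and 0.01 ± 0.13 between the lines, with adjusted p-values of 0.552 and 0.980 in edgeR. The 21 interferon-response genes summed to 1191 and 1272 CPM in Vav-Cre, 1102 to 1198 CPM in Mx1-Cre and 1237 to 1455 CPM in wild type, so their order over the groups was not that of Rec8. The profiles most like Rec8 were those of Adat2 (a tRNA adenosine deaminase), Fzd6 (a Wnt receptor) and Trim30b, at 0.27, 0.28 and 0.31. Fzd6 had 35.8 and 40.2 CPM in Vav-Cre libraries, 15.3, 15.4 and 15.5 CPM in Mx1-Cre libraries, and 19.9, 25.5 and 25.1 CPM in wild type.

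Of 31 other cohesin and meiotic genes tested, 1 rose in Vav-Cre relative to Mx1-Cre and 0 fell. Over all tested genes these shares were 0.114% and 0.0568%. A further 5 had an unadjusted p below 0.05, and the median log2 difference was -0.16. Rad21, the kleisin that takes the place of Rec8 in dividing body cells, averaged 356 ± 39.3 CPM in Vav-Cre, 380 ± 84.7 CPM in Mx1-Cre and 310 ± 37.6 CPM in wild type. Stag3 and Smc1b, the partners of Rec8 in the meiotic ring, had no call: Stag3 averaged 10.4 ± 9.92 CPM in Vav-Cre, 8.79 ± 0.757 CPM in Mx1-Cre and 10.2 ± 1.24 CPM in wild type. Smc1b averaged 2.10 ± 0.399 CPM in Vav-Cre, 1.12 ± 0.678 CPM in Mx1-Cre and 0.898 ± 0.645 CPM in wild type.

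Meiob was the gene called. It passed the filter on low counts only through the Vav-Cre libraries, where it is high, so its test is no independent support. Meiob encodes a single-stranded DNA binding protein of meiotic recombination. Meiob had 130 and 257 reads in Vav-Cre libraries, 0 in each of the 3 Mx1-Cre libraries, and 10, 1 and 5 reads in wild type. Against a floor of 3 reads per Mx1-Cre library, its CPM was at least 61.0-fold higher in Vav-Cre (edgeR, adjusted p = 0.0346). Both Vav-Cre libraries were above the other 6. The call was lost without Vav-Cre 2, Mx1-Cre 1, Mx1-Cre 3 or wild type 3, with an adjusted p of up to 0.127. Sycp1, a component of the synaptonemal complex that pairs meiotic chromosomes, had 108 and 45 reads in Vav-Cre, 0 in each Mx1-Cre library, and 0, 0 and 2 in wild type, with an adjusted p of 0.0748 in edgeR. DESeq2, which called 468 genes between the lines against the 24 of edgeR, also called Sycp1 and Spo11, higher in Vav-Cre, and Espl1, lower there. Of this list, limma voom called Meiob only. Against wild type, edgeR and DESeq2 called 0 of the 31, 4 had an unadjusted p below 0.05 in edgeR, and limma voom called 1, Mau2. Sycp1 likewise passed the filter through the Vav-Cre libraries. Over the 131 tested genes of the 6 pathway lists, Meiob was the 1 call between the lines (0.763%), beside 0.170% of all tested genes.

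**Figure D5:**
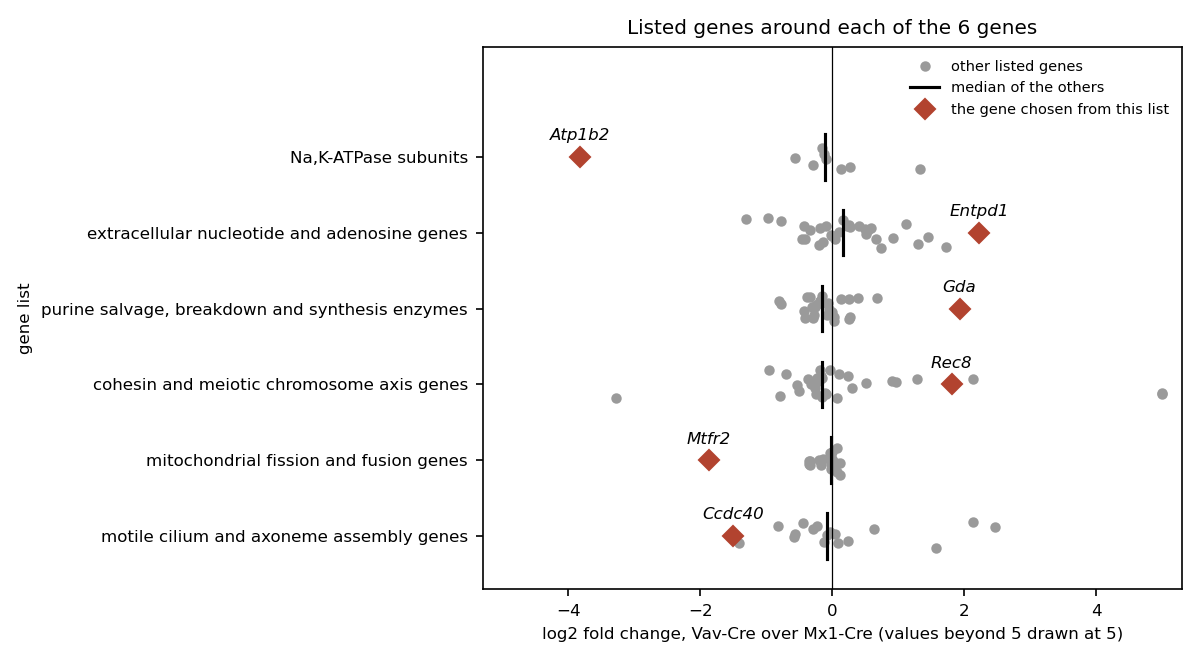
Log2 fold change of Vav-Cre over Mx1-Cre for the tested genes of 6 pathway lists (grey points, black bar for their median) and for the 6 genes themselves (red diamonds), which were picked for this difference. Values beyond 5 are drawn at 5, where Meiob and Sycp1 lie on top of each other, and mitochondrial fission and fusion genes other than Mtfr2 lie closest together.

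Mtfr2 was low in Vav-Cre and somewhat high in Mx1-Cre. It had 52.1 and 40.7 CPM in Vav-Cre libraries, 169, 215 and 127 CPM in Mx1-Cre libraries, and 122, 102 and 102 CPM in wild type. The lowest wild-type library was 1.96-fold above the highest Vav-Cre library, whereas the lowest Mx1-Cre library was only 1.04-fold above the highest in wild type. Means were 46.4 ± 8.06 CPM in Vav-Cre, 170 ± 44.0 CPM in Mx1-Cre and 109 ± 11.6 CPM in wild type (SD, n = 2, 3 and 3). The log2 difference of Vav-Cre was -1.88 ± 0.23 from Mx1-Cre and -1.23 ± 0.22 from wild type, and that of Mx1-Cre from wild type was 0.65 ± 0.19. These values rest on 1314 to 5922 reads per library, the deepest of the 6 genes.

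Of 17 other mitochondrial fission and fusion genes tested, 0 were called between the lines by edgeR, DESeq2 or limma voom. Of all tested genes edgeR called 0.170%, so 0 of 17 is not read as a result. In edgeR 2 of the 17 had an unadjusted p below 0.05, and the median log2 difference was -0.03. Mtfr1 and Mtfr1l, the relatives of Mtfr2, had differences of -0.20 ± 0.16 and 0.07 ± 0.13 between the lines. Dnm1l, the dynamin-related GTPase that severs mitochondria, averaged 185 ± 37.2 CPM in Vav-Cre, 204 ± 15.6 CPM in Mx1-Cre and 165 ± 22.9 CPM in wild type. Relative to wild type, 2 of the 17 fell in the 5 knockout-labelled libraries and 0 rose. Over all tested genes 2.58% fell and 0.582% rose. Mtfp1, a protein of the inner membrane needed for fission, averaged 7.17 ± 0.853 CPM in Vav-Cre, 9.17 ± 2.34 CPM in Mx1-Cre and 16.4 ± 1.84 CPM in wild type (log2 change -0.98 ± 0.21, edgeR, adjusted p = 0.0356). Spire1, an actin nucleator with a form that acts at mitochondria, averaged 16.0 ± 5.15 CPM, 14.7 ± 2.71 CPM and 30.7 ± 8.81 CPM in Vav-Cre, Mx1-Cre and wild type (log2 change -1.02 ± 0.23, edgeR, adjusted p = 0.0470). Both calls were lost without any 1 wild-type library. That of Mtfp1 was also lost without Mx1-Cre 1 or Vav-Cre 2, and that of Spire1 without any 1 Mx1-Cre library, with adjusted p-values of up to 0.169 and 0.250.

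Cell cycle genes did not follow Mtfr2 in every library. The 25 G2/M and mitosis genes summed to 4811 and 2262 CPM in Vav-Cre 1 and 2, 4845 to 5730 CPM in Mx1-Cre and 3571 to 3677 CPM in wild type. All 25 had a negative log2 difference between the lines, with a median of -0.64, and 0 were called in edgeR and limma voom, while DESeq2 called Aurkb and Plk1 and 13 had an unadjusted p below 0.05 in edgeR. Between the lines these genes thus ran the same way as Mtfr2. In 1 library, Vav-Cre 1, the G2/M sum was above every wild-type library while Mtfr2, at 52.1 CPM, was below all of them. The part of cell cycle transcripts in the Mtfr2 difference was not tested. The profiles most like Mtfr2 were those of D330045A20Rik, Steap3 and Ncf4, at 0.26, 0.30 and 0.32. RefSeq names the first Radx, a protein that binds single-stranded DNA at replication forks, Steap3 encodes a metal reductase that serves iron uptake in red cell precursors, and Ncf4 a subunit of the phagocyte NADPH oxidase. D330045A20Rik had 9.91 and 4.43 CPM in Vav-Cre libraries, 23.5, 27.5 and 16.9 CPM in Mx1-Cre libraries, and 23.7, 14.9 and 14.3 CPM in wild type. Bclaf1, the nearest protein-coding gene beside Mtfr2 in RefSeq order, had a log2 difference of -0.17 ± 0.15 between the lines and no call.

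Ccdc40 was lowest in Vav-Cre. It had 11.5 and 8.89 CPM in Vav-Cre libraries, 25.1, 35.2 and 26.8 CPM in Mx1-Cre libraries, and 35.6, 34.4 and 32.0 CPM in wild type. Mx1-Cre 2 lay inside the wild-type range and the other Mx1-Cre libraries below it, and the lowest wild-type library was 2.78-fold above the highest Vav-Cre library. Means were 10.2 ± 1.86 CPM in Vav-Cre, 29.1 ± 5.38 CPM in Mx1-Cre and 34.0 ± 1.81 CPM in wild type (SD, n = 2, 3 and 3). The log2 difference of Vav-Cre was -1.51 ± 0.22 from Mx1-Cre and -1.74 ± 0.23 from wild type, and that of Mx1-Cre from wild type was -0.23 ± 0.19. RefSeq has Tbc1d16 overlapping Ccdc40, and reads in the shared stretch cannot be assigned without strand. Tbc1d16 had 16.2 and 21.4 CPM in Vav-Cre, 11.7, 11.9 and 15.1 CPM in Mx1-Cre, and 11.5, 18.9 and 16.1 CPM in wild type, a difference of 0.55 ± 0.26 between the lines, opposite in sign to that of Ccdc40.

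Slc26a11, an anion transporter gene, had the profile most like Ccdc40, at 0.26, and lies near it on chromosome 11, with 3 protein-coding genes between them. It had 7.99 and 8.18 CPM in Vav-Cre libraries, 25.3, 39.4 and 22.4 CPM in Mx1-Cre libraries, and 38.7, 25.9 and 21.8 CPM in wild type. Both Vav-Cre libraries were below all others, as in Ccdc40, a likeness for which the gene was picked. Gaa, the lysosomal alpha-glucosidase gene directly beside Ccdc40, had a difference of -0.14 ± 0.18 between the lines and no call. F2rl2, a protease-activated receptor, and Hmgn2, a nucleosome-binding protein, followed at 0.27 and 0.28.

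No other cilium gene was called between the lines by edgeR. Of all tested genes edgeR called 0.170%, so 0 of 17 is not read as a result. Of 17 tested, 4 had an unadjusted p below 0.05, limma voom called 0 and DESeq2 called Ccdc39 and Spag6, both higher in Vav-Cre, with a median log2 difference of -0.08. Ccdc39, the partner of Ccdc40, had the opposite sign, with a log2 difference of 1.57 ± 0.45 that did not pass (edgeR, adjusted p = 0.196). It had 296 and 119 reads in Vav-Cre libraries, 95, 70 and 46 reads in Mx1-Cre libraries, and 158, 187 and 156 reads in wild type. Gas8, a subunit of the nexin-dynein regulatory complex, averaged 20.2 ± 0.882 CPM in Vav-Cre, 27.5 ± 4.49 CPM in Mx1-Cre and 26.5 ± 1.36 CPM in wild type, with a difference of -0.45 ± 0.20 between the lines (edgeR, adjusted p = 0.363). Rfx3, a factor that activates cilium genes, was the 1 of the 17 called against wild type, beside 3.16% of all tested genes. It averaged 25.4 ± 5.87 CPM in Vav-Cre, 24.6 ± 3.58 CPM in Mx1-Cre and 42.2 ± 3.45 CPM in wild type, a log2 change of -0.76 ± 0.16 (edgeR, adjusted p = 0.0352). All 5 knockout-labelled libraries were below all 3 of wild type, and the call was lost without any 1 wild-type library or without Mx1-Cre 1 or 3, with an adjusted p of up to 0.169.

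The comparison of all 5 knockout-labelled libraries with wild type, weighted per library, is the one test given for the 6 genes themselves. It uses the same knockout-labelled libraries that picked them. It would be uncorrelated with the picking difference only if all libraries varied equally, and the coefficients of variation given above were unequal. Each gene's spread was also estimated once, in the fit that gives the difference between the lines. Genes picked for that difference can thus have a low estimate of spread. The p-values of this comparison are therefore not independent of the choice and may be too small. In it 2 of the 6 were called, both lower, beside 3.16% of all tested genes called and 2.58% called lower. Entpd1 fell by 1.66 ± 0.25 on the log2 scale (edgeR, adjusted p = 0.00985), with 4 of 5 knockout-labelled libraries below the lowest wild-type library. The call was lost without wild type 2 (adjusted p = 0.0548) or wild type 3 (adjusted p = 0.0524). Ccdc40 fell by 0.83 ± 0.17 (edgeR, adjusted p = 0.0271), again with 4 of 5 libraries below the lowest of wild type. Its call was lost without wild type 1, 2 or 3 (adjusted p = 0.104, 0.133 and 0.105), without Vav-Cre 1 (0.0644) and without Vav-Cre 2 (0.0957). In each of the 2 genes the pooled value averages a line far from wild type with one near it, as the values per library show.

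The other 4 genes did not pass. The pooled log2 change was -0.24 for Atp1b2 (95% interval -0.93 to 0.45, edgeR, adjusted p = 0.774) and -0.10 for Mtfr2 (-0.48 to 0.27, adjusted p = 0.829). These are the 2 genes whose lines lay on opposite sides of wild type. For Rec8 it was 0.25 (-0.17 to 0.66, adjusted p = 0.580) and for Gda -0.41 (-0.95 to 0.13, adjusted p = 0.448). Without Vav-Cre 2, the Gda change was -0.89 and passed, with an adjusted p of 0.0149. Over the 131 other genes of the pathway lists, 6 were called in this comparison (4.58%), all lower, and 0 were higher.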

How the data were processed

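RNA was measured by sequencing in 8 libraries of sorted mouse HSC. The labels' protocols give SMARTer Ultra Low Input cDNA synthesis followed by NEBNext library preparation, which keeps no strand. TopHat, SAMtools, HTSeq and edgeR with build mm9 are named in the submitters' processing notes, with no version or role. Which annotation and counting settings were used is not given in the sources at hand. The authors deposited raw read counts per gene symbol, with 0 unassigned columns, and these were used. A second, normalized table was not used.

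Samples were grouped by their titles. Counts were tested with edgeR 4.0.16 (R 4.3.3) by the quasi-likelihood test after filterByExpr (minimum count 10, minimum total 15) and TMM scaling, in 1 fit of the 8 libraries whose sole term was the group. Genes were called at a Benjamini-Hochberg adjusted p below 0.05 over 14086 genes. Each SE was obtained as the size of the log2 fold change over the root of its F statistic. Pooled weights were 0.6 for Mx1-Cre and 0.4 for Vav-Cre. The code was tested on simulated counts. Likeness used log2 CPM (prior count 2) of genes with a mean of at least 2, and the 3 nearest genes were named. Those genes were picked on the same 8 libraries, so their agreement with any of the 6 genes is no further support. Also named were the 6 genes, listed pathway genes called, and chosen relatives. Some genes that this rule names are not reported here. The genes, lists and tests were chosen with earlier results of these data known. Total counts were 28689765 to 33202926 per library. Floors cover counting error only, since reads carried no molecular identifiers. A chi-square comparison of counts gave 28.8 to 134 per degree of freedom within groups, and no library was treated as a repeat. Sequences and gene order came from RefSeq on GRCm38.p6, used apart from the mm9 counts. Alternatives were DESeq2 1.42.0, limma voom (limma 3.58.1), other scalings and filters, a replicate block and leaving out each library.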

Additional observations from a re-analysis of the deposited data

Results flagged for a closer look

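In Atp1b2 every Vav-Cre library was below, and every Mx1-Cre library above, all wild-type libraries, and the lines differed by -3.82 on the log2 scale. Mtfr2 had the same arrangement, with a difference of -1.88. These differences were not tested, because the genes were picked for them. Meiob was at least 61.0-fold higher in Vav-Cre than the floor of 3 reads per Mx1-Cre library, with 130 and 257 reads in Vav-Cre and 0 in each Mx1-Cre library (edgeR, adjusted p = 0.0346). It drew attention because the lines differed by the test of their difference, but it passed the filter on low counts only through the Vav-Cre libraries, so that test is no independent support.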

How the results depend on the processing

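The log2 differences between the lines, and of each line from wild type, kept their sign for all 6 genes in the alternatives run, except Gda in Vav-Cre against wild type, at -0.03 without Vav-Cre 2. The pooled change of the 5 knockout-labelled libraries from wild type reversed for 3 genes that were not called: leaving out single libraries gave -0.68 to 0.43 for Atp1b2 (0.43 and 0.20 without Vav-Cre 1 and 2), -0.10 to 0.46 for Rec8 (-0.10 without Vav-Cre 2) and -0.39 to 0.22 for Mtfr2 (0.13 and 0.22 without Vav-Cre 1 and 2). The cause was not tested beyond the removal itself. Of the 6 genes, 0 to 2 were called against wild type when single libraries were left out, and 1 with the replicate number as a block, where Ccdc40 had an adjusted p of 0.0563. Genes called against wild type numbered 445, and 1010 with DESeq2, 1347 with limma voom, 271 with the block and 38 to 618 with single libraries left out. Genes called between the lines numbered 24, and 468 with DESeq2, 81 with no filter on low counts, 10 with limma voom, 9 with the block, 3 with only the groups compared and 3 to 412 with single libraries left out. Listed pathway genes called between the lines numbered 1, and 7 with DESeq2, 2 with no filter, 0 with the block, 0 with only the groups compared and 0 to 9 with single libraries left out. Against wild type they numbered 6, and 11 with limma voom, 3 with the block and 0 to 9 with single libraries left out. Weighting the lines equally moved none of these counts by over 1.5 times, but Spire1 was no longer called. Replicate numbers did not pair the libraries: deviations of same-numbered libraries correlated at -0.07 to 0.13 over 7 pairs. A fit of only the groups compared could not differ for the comparison with wild type, which uses all groups. Scaling choices moved the median of all genes by less than the 0.1 at which changes would be given relative to it. Depth limits Meiob and Sycp1, and Add2 and Atp1b2 in Vav-Cre, most, and 2 Vav-Cre libraries limit every difference that uses them.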
